A study of Mus musculus with 12 samples.

Results

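Fgf5, Otx2, Pou3f1, Sox3, Zic2, Zic5 and Lef1, 7 genes of the formative epiblast, were followed through 12 libraries of poly(A) RNA from mouse embryonic stem (ES) cells and the embryoid bodies grown from them. The genes were taken by symbol from a table of 54537 genes, and all 7 were found once and passed the filter on low values (at least 1 FPKM in at least 2 libraries, met by 16289 genes). FPKM is fragments per kilobase of transcript, scaled to the size of the library, so levels can be set beside each other between genes. The study compared a wild type line (WT) with a line that carries the genotype label WT+1343KO-a14 (hereafter the 1343KO line), each at days 0, 8 and 16 with 2 libraries per group. Day 0 cells grew on gelatin in serum with leukaemia inhibitory factor (LIF), a cytokine that holds ES cells undifferentiated. For days 8 and 16 they were kept in suspension, in medium with less serum and no LIF, and formed embryoid bodies. The 1343KO line is 1 clone, and the labels give no strain, no deleted sequence and no meaning for the leading WT+.

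Formative pluripotency is the state through which the epiblast passes after it leaves naive pluripotency and before it can answer the signals of gastrulation. In that passage Otx2 works with Oct4 at enhancers that were silent in naive cells, and Pou3f1, Sox3, the ZIC factors and the secreted ligand Fgf5 come on. Lef1 is a DNA-binding partner of beta-catenin and carries WNT signals to target genes. Several of these genes are used again later: Otx2, Sox3, Zic2, Zic5 and Pou3f1 in the neural plate, Otx2 in visceral endoderm and Lef1 in mesenchyme.

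The libraries held an estimated 4822000 to 7918000 fragments, both extremes being 1343KO libraries of day 8, so that 1 FPKM of a transcript of 2000 nt stood for about 9.64 to 15.8 fragments. Pou5f1 (Oct4), the defining gene of ES cells, was at 761 to 851 FPKM in the 4 day 0 libraries. Snhg3, the host gene of the SNORA73 copies named by the title, was at 8.31 to 61.1 FPKM in WT and at 0 to 1.57 in the 1343KO line. The Y-linked gene Eif2s3y was at 13.8 to 24 FPKM in WT and at 0.198 to 1.28 in the 1343KO line; its part in the differences below was not tested. In bulk RNA, a smaller share of cells that express a gene and less of its RNA per cell cannot be told apart.

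The genes lie on 5 chromosomes of GRCm38. Fgf5 (ENSMUSG00000029337) spans chr5:98254184-98277030 on the plus strand, Otx2 (ENSMUSG00000021848) chr14:48657677-48673819 on the minus strand, and Pou3f1 (ENSMUSG00000090125) chr4:124656807-124660655 on the plus strand in 1 exon. Sox3 (ENSMUSG00000045179), also of 1 exon, spans chrX:60891366-60893430 on the minus strand, and Lef1 (ENSMUSG00000027985) chr3:131110471-131224356 on the plus strand. Zic2 (ENSMUSG00000061524, chr14:122475435-122479852, plus strand) and Zic5 (ENSMUSG00000041703, chr14:122456795-122465677, minus strand) are neighbours that point away from each other, with 9757 bases between them. The noncoding gene 2610035F20Rik lies in that interval, 235 bases from Zic2, and did not exceed 2.79 FPKM. The table also holds 5 transcripts annotated over members. Otx2os1, which overlaps Otx2 from the other strand, did not exceed 0.521 FPKM, Gm2164 over Pou3f1 did not exceed 1.46e-07, and Gm43352 over Lef1 did not exceed 1.82. Gm49154, on the strand of Otx2, was at 0 in all 12 libraries, and Gm42449, inside Lef1, did not exceed 0.217. Whether the counting used strand is not given in the sources used here.

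RefSeq promoter sequences (GRCm38.p6) were matched for Fgf5, Otx2, Zic5 and Lef1, 4 of the 7 genes; Pou3f1, Sox3 and Zic2 had no entry. They are shown because 3 of the 4 were higher together in the 1343KO embryoid bodies and Lef1 did not pass. Of the 4 windows in the table for Otx2 and the 4 for Lef1, 1 each is printed, both free of exon bases. For Lef1 another window, chr3:131112541-131112790, was also free of exon bases and is not printed. It held fewer motif matches than the printed one. Each line below is the 250 bases before an annotated start, 5′ to 3′ on the gene's strand, from chr5:98253934-98254183 (Fgf5, plus strand), chr14:48667645-48667894 (the most upstream Otx2 start in that table, minus strand, inside an intron of a longer Otx2 transcript), chr14:122465659-122465908 (Zic5, minus strand) and chr3:131156044-131156293 (an internal Lef1 start, plus strand, inside an intron). Capitals mark matches on either strand to TAATCC (the OTX core), CTTTGT (a core shared by the HMG box proteins SOX, LEF1 and TCF), CTTTGA (another LEF1 and TCF core), CAGCAGG (the ZIC core) and GGGCGG (the GC box).
Fgf5: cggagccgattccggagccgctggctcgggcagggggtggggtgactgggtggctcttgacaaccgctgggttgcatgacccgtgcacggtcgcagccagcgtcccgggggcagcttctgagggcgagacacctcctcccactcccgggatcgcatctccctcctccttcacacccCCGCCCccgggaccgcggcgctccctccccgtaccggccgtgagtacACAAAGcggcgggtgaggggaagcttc
Otx2: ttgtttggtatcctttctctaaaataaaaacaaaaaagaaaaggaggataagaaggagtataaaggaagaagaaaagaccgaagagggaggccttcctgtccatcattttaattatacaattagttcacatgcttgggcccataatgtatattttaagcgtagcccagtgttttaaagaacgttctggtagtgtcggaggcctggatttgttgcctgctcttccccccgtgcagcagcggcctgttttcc
Zic5: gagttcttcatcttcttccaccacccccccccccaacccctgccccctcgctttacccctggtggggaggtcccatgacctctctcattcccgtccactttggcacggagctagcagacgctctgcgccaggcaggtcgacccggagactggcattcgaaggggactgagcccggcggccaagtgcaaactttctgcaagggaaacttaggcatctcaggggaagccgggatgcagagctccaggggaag
Lef1: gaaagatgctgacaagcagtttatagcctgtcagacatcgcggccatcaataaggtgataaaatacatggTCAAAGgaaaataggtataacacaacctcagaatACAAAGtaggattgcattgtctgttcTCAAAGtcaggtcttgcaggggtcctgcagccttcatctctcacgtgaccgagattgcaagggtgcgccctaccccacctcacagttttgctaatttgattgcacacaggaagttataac
Fgf5 held ACAAAG, the reverse complement of CTTTGT, starting 27 bases before the start, and 1 GC box. The Otx2 and Zic5 windows shown held none of the 5 motifs; of the other 3 Otx2 windows, 1 held TAATCC. The internal Lef1 window held 3 HMG cores: 1 ACAAAG and 2 copies of TCAAAG, the reverse complement of CTTTGA. Of the other 3 Lef1 windows, all held a GC box, 2, which overlap, held CAGCAGG, and none held an HMG core. Among 32851 windows of the same length in the table, CTTTGT in either orientation was in 16.5%, CTTTGA in 13.8%, CAGCAGG in 8.44%, TAATCC in 6.25% and GGGCGG in 32.7%. A match describes letters only.

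**Figure D1:**
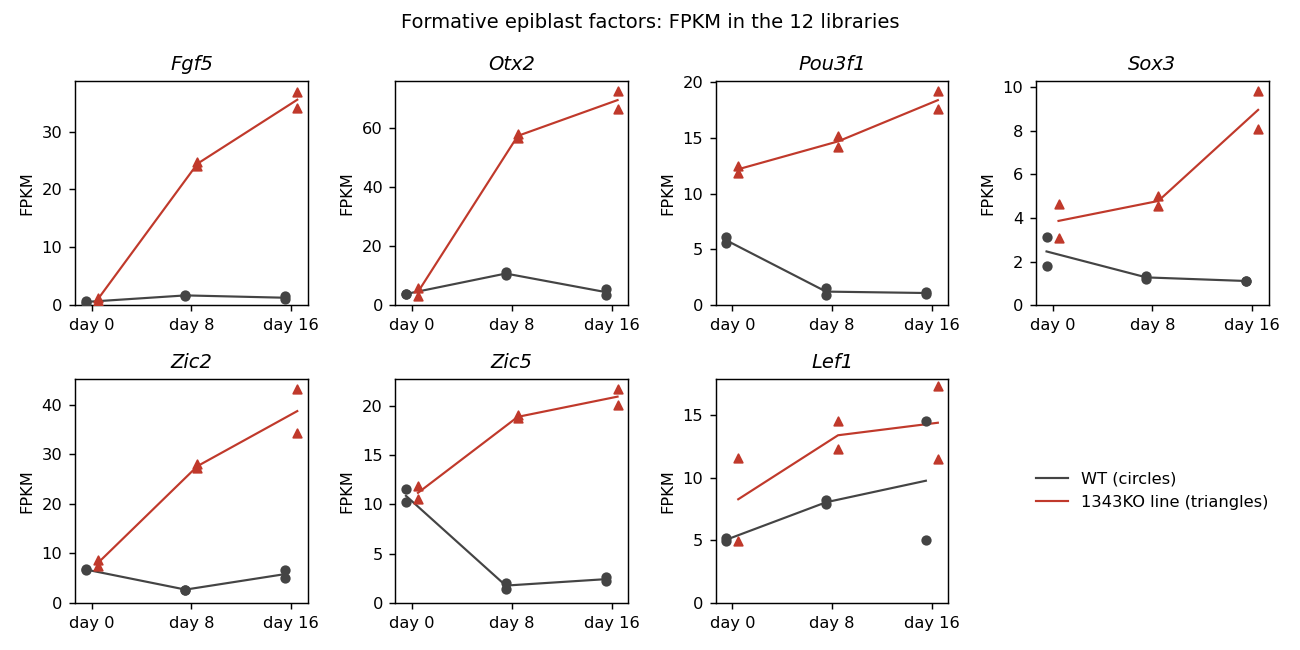
FPKM (vertical axes, each from 0) of the 7 genes by day, with 1 symbol per library, circles for WT, triangles for the 1343KO line and lines through the group means. At days 8 and 16 both triangles lie above both circles for every gene except Lef1 at day 16, where the WT libraries at 14.5 and 5.03 straddle the 1343KO library at 11.5.

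In embryoid bodies 6 of these genes were higher in the 1343KO line, and in ES cells 1 passed. The day 0 estimates all lay above 0: the 1343KO mean FPKM was 2.1-fold that of WT for Pou3f1, 1.75-fold for Fgf5, 1.64-fold for Lef1, 1.57-fold for Sox3, and 1.03- to 1.19-fold for Otx2, Zic2 and Zic5. At day 0, 1 of the 7 genes passed as higher in the 1343KO line and 6 did not pass, where 3.71% of all genes tested passed in either direction and 1.59% as higher (limma, Benjamini-Hochberg adjusted p under 0.05). At day 8, 6 of 7 were higher and 1 did not pass, against 42.8% of all genes in either direction and 23.3% higher. At day 16 the count was again 6 higher and 1 not passing, against 52.6% in either direction and 28.5% higher. The median difference of the 7 genes on the log2(FPKM + 1) scale came to 0.35 on day 0, 2.84 on day 8 and 2.69 on day 16, beside 0.00, 0.06 and 0.07 over all genes tested. Lef1 was the gene that did not pass at days 8 and 16.

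Fgf5 encodes a secreted fibroblast growth factor whose transcript is the usual marker of the epiblast after implantation. In WT its 6 libraries read 0.318 and 0.813 FPKM (day 0), 1.54 and 1.85 (day 8), then 1.03 and 1.55 (day 16). Those of the 1343KO line read 0.68 and 1.3 FPKM (day 0), 24.8 and 24.1 (day 8), then 36.9 and 34.1 (day 16). All 4 embryoid body libraries of the 1343KO line lay far above the other 8, and the WT and 1343KO libraries of day 0 overlapped. Its mean in the 1343KO line was 14.4-fold that of WT at day 8 (24.4 ± 0.497 against 1.69 ± 0.222 FPKM, SD, n = 2; log2 difference 3.24 ± 0.22 (SE), adjusted p = 5.25e-06). At day 16 it was 27.5-fold (35.5 ± 1.99 against 1.29 ± 0.372; log2 difference 4.0 ± 0.22, adjusted p = 7.62e-07). Within the 1343KO line Fgf5 rose by 4.21 ± 0.22 from day 0 to day 16 (adjusted p = 3.31e-06), the largest rise of the 7. The step from day 8 to day 16 was 0.52 ± 0.22 and did not pass (adjusted p = 0.38). In WT it rose from day 0 to day 8 by 0.80 ± 0.22 (adjusted p = 0.0138). It no longer passed when replicate 1 of WT day 0 (adjusted p = 0.0961) or replicate 2 of WT day 8 (0.0754) was left out, or on the WT libraries of those days alone (0.054), and WT levels this low rest on few fragments.

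Otx2, a homeodomain factor of the epiblast and the head, had the highest level of the 7 in the 1343KO embryoid bodies. WT libraries read 3.75 and 3.88 FPKM (day 0), 11.3 and 10.2 (day 8), then 3.32 and 5.59 (day 16). The 1343KO libraries read 3.26 and 5.73 FPKM (day 0), 56.7 and 58.2 (day 8), then 66.6 and 72.6 (day 16). WT thus had a peak at day 8, while the 1343KO line stayed high to day 16. In WT, Otx2 rose to day 8 by 1.29 ± 0.23 (adjusted p = 0.0013) and fell to day 16 by 1.14 (SE 0.23, adjusted p = 0.00593); the second call ended on the 4 WT libraries of days 8 and 16 alone (adjusted p = 0.0714). Otx2 of the 1343KO line rose to day 8 by 3.45 ± 0.23 (adjusted p = 1.56e-05), and the step to day 16, 0.27 ± 0.23, did not pass (adjusted p = 0.698). The 1343KO mean was 5.32-fold that of WT at day 8 (log2 difference 2.31 ± 0.23, adjusted p = 5.53e-05) and 15.6-fold at day 16 (3.72 ± 0.23, adjusted p = 1.54e-06). The change from day 8 to day 16 itself differed between the lines by 1.41 ± 0.33 (adjusted p = 0.0186). Of the 7 genes only Otx2 passed that test, where 16.7% of all genes passed, 8.50% as higher and 8.20% as lower. It was lost when replicate 1 of WT day 8 (adjusted p = 0.0612), replicate 1 of WT day 16 (0.0544), either 1343KO library of day 8 (0.0536 and 0.0547) or replicate 2 of 1343KO day 16 (0.0625) was left out.

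Pou3f1 (Oct6), a POU factor, was the 1 gene that passed between the lines as ES cells. It was at 6.11 and 5.54 FPKM in WT and at 12.5 and 11.9 in the 1343KO line at day 0. These groups did not overlap, and the 1343KO mean was 2.1-fold that of WT (log2 difference 0.95 ± 0.17, adjusted p = 0.0167). Leaving out any 1 of those 4 libraries ended the call (adjusted p = 0.0623 and 0.109 without WT replicates 1 and 2, 0.0756 and 0.0776 without 1343KO replicates 1 and 2), as did a fit to those 4 libraries alone (0.179). In WT embryoid bodies Pou3f1 fell, to 1.55 and 0.892 FPKM at day 8 and 1.19 and 1 at day 16. The 1343KO libraries read 14.2 and 15.2 FPKM on day 8, then 17.6 and 19.2 on day 16. The WT fall from day 0 to day 8 was -1.64 ± 0.17 (adjusted p = 3.41e-05), while the 1343KO change over those days, 0.25 ± 0.17, did not pass (adjusted p = 0.331). The 12-fold gap at day 8 (log2 difference 2.84 ± 0.17, adjusted p = 2.07e-06) came with a fall in WT and no called change in the 1343KO line. At day 16 the gap was 16.8-fold (3.21 ± 0.17, adjusted p = 5.01e-07). The 1343KO rise from day 0 to day 16 was 0.55 ± 0.17 (adjusted p = 0.0361). It ended with a pseudocount of 0.1 (adjusted p = 0.106), median-of-ratios scaling (0.103) or TPM scaling (0.0982), and without either 1343KO library of day 0 (0.0946 and 0.135), day 8 (0.0502 and 0.0504) or day 16 (0.0859 and 0.158).

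Sox3, an HMG box factor of the same subgroup as Sox1 and Sox2, was the lowest of the 7 in the 1343KO embryoid bodies. WT libraries read 1.79 and 3.14 FPKM (day 0), 1.35 and 1.2 (day 8), then 1.13 and 1.09 (day 16). The 1343KO libraries read 3.08 and 4.65 FPKM (day 0), 5.02 and 4.54 (day 8), then 8.07 and 9.84 (day 16). The lines overlapped at day 0 and parted at days 8 and 16. The 1343KO mean was 3.75-fold that of WT at day 8 (log2 difference 1.35 ± 0.24, adjusted p = 0.00145) and 8.09-fold at day 16 (2.23 ± 0.24, adjusted p = 4.23e-05). In the 1343KO line the rise from day 0 to day 16 was 1.04 ± 0.24 (adjusted p = 0.0106), and in WT Sox3 fell by 0.69 over that time (SE 0.24, adjusted p = 0.029). The first call was lost without replicate 1 of 1343KO day 0 (adjusted p = 0.0692) or replicate 2 of 1343KO day 16 (0.0697), and on the libraries of those groups alone (0.0782). The second was lost without replicate 2 of WT day 0 (0.209) or either WT library of day 16 (0.0866 and 0.0965), without a filter (0.0556) and on the WT libraries of those days alone (0.0865). Sox3 is X-linked; over 335 X-linked genes averaging 5 FPKM or more, the median log2 difference between the lines stood at 0.02 on day 0, then -0.08 on day 8 and 0.03 on day 16, against -0.01, 0.11 and 0.20 for the other chromosomes.

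Zic2 and Zic5, zinc finger factors that share a locus, did not pass between the lines as ES cells and were over 10-fold apart at day 8. Zic2 read 6.94 and 6.54 FPKM in WT (day 0), 2.69 and 2.68 (day 8), then 5.03 and 6.61 (day 16). Its 1343KO libraries read 7.38 and 8.63 FPKM (day 0), 27.2 and 28 (day 8), then 34.2 and 43.2 (day 16). WT thus dipped at day 8 and came back to a range that touched its own day 0 libraries, while the 1343KO line stood above all WT libraries at every day. The gap was 10.3-fold at day 8 (log2 difference 2.96 ± 0.16, adjusted p = 1.17e-06) and 6.65-fold at day 16 (2.54 ± 0.16, adjusted p = 1.41e-06). In WT, Zic2 fell to day 8 by 1.07 (SE 0.16, adjusted p = 0.000357) and rose again to day 16 by 0.88 ± 0.16 (adjusted p = 0.00294). The second WT call ended on the 4 WT libraries alone (adjusted p = 0.0617). The 1343KO line rose in Zic2 to day 8 by 1.67 ± 0.16 (adjusted p = 0.000103).

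Zic5 read 11.5 and 10.2 FPKM in WT (day 0), 1.45 and 2.06 (day 8), then 2.64 and 2.17 (day 16). Its 1343KO libraries read 10.5 and 11.8 FPKM (day 0), 18.7 and 19 (day 8), then 21.7 and 20.1 (day 16). Day 0 libraries of the lines were interleaved, and later ones did not overlap. The gap was 10.8-fold at day 8 (log2 difference 2.86 ± 0.15, adjusted p = 1.17e-06) and 8.71-fold at day 16 (2.69 ± 0.15, adjusted p = 8.09e-07). The WT fall to day 8, -2.11 ± 0.15 (adjusted p = 3.64e-06), was larger than that of any other of the 7 genes. The 1343KO rise to day 8 was 0.71 ± 0.15 (adjusted p = 0.00909) and ended without 1343KO day 0 replicate 1 (adjusted p = 0.0552). Because Zic2 and Zic5 moved by different amounts, their ratio changed with time in both lines. Zic2 was at 0.604 and 0.642 of the Zic5 level in the WT libraries of day 0, 1.86 and 1.3 at day 8, and 1.9 and 3.05 at day 16. Its 1343KO values were 0.705 and 0.731 at day 0, 1.46 and 1.47 at day 8, and 1.57 and 2.14 at day 16. Zic5 was thus the more abundant of the pair per length in all 4 ES cell libraries and Zic2 in all 8 embryoid body libraries.

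Lef1 had the largest standard error of the 7 genes (0.44 on the log2(FPKM + 1) scale, against 0.15 to 0.24 for the others). WT libraries read 4.95 and 5.15 FPKM (day 0), 7.88 and 8.21 (day 8), then 14.5 and 5.03 (day 16). The 1343KO libraries read 4.97 and 11.6 FPKM (day 0), 14.5 and 12.3 (day 8), then 17.3 and 11.5 (day 16). The replicates differed 2.87-fold in WT at day 16 and 2.34-fold in the 1343KO line at day 0, and only at day 8 did the lines not overlap. The log2 difference between the lines was 0.52 ± 0.44 at day 0 (95% interval -0.47 to 1.52, adjusted p = 0.635), 0.67 ± 0.44 at day 8 (-0.33 to 1.66, adjusted p = 0.259) and 0.65 ± 0.44 at day 16 (-0.34 to 1.65, adjusted p = 0.247). These intervals include no difference as well as a difference of 1.5 on this scale, so the data do not show that Lef1 was alike in the lines. On the 4 day 8 libraries alone Lef1 passed (adjusted p = 0.0317), as it did at day 16 without WT replicate 1 (1.33, adjusted p = 0.0303); without WT replicate 2 the day 16 difference was -0.03.

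**Figure D2:**
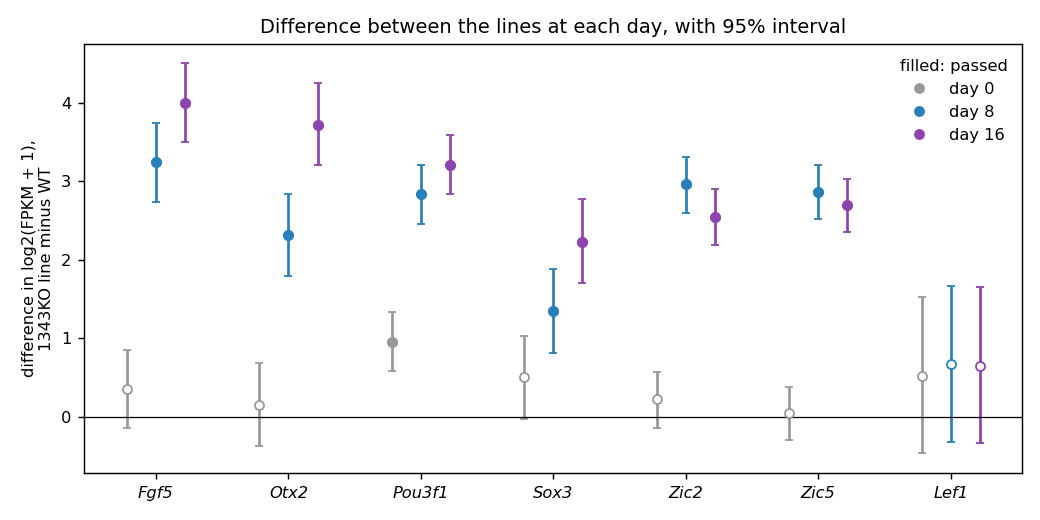
Difference between the lines in log2(FPKM + 1) for each gene at days 0, 8 and 16, with 95% intervals from the limma fit, filled where the adjusted p was under 0.05. Pou3f1 is the 1 gene filled at day 0 (0.95), 6 genes are filled at days 8 and 16, and the wide intervals of Lef1 cross 0 at each day.

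Called changes went both ways in WT and only up in the 1343KO line. In WT from day 0 to day 8, Fgf5 and Otx2 rose, Pou3f1, Zic2 and Zic5 fell, and Sox3 (-0.58, adjusted p = 0.0663) and Lef1 (0.58, adjusted p = 0.303) did not pass, where 51.3% of all genes passed, 26.8% as higher and 24.5% as lower. Over the same days 4 of 7 rose in the 1343KO line (Fgf5, Otx2, Zic2 and Zic5) and 3 did not pass, where 23.5% of all genes passed, 15.0% as higher and 8.51% as lower. From day 0 to day 16, 3 of 7 fell in WT (Pou3f1, Sox3 and Zic5) and 4 did not pass, where 61.2% of all genes passed and 28.5% as lower. In the 1343KO line 6 of 7 rose over those 16 days and Lef1 (0.80 ± 0.44, adjusted p = 0.218) did not pass, where 26.8% passed, 18.2% as higher and 8.60% as lower. Between days 8 and 16, 0 of 7 passed in the 1343KO line by limma (3 at an unadjusted p under 0.05: Fgf5, Sox3 and Zic2), where 0.804% of all genes passed and 0.602% as higher; in WT Otx2 fell and Zic2 rose, where 27.6% passed.

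These courses were compared directly as the difference between the lines in the change from day 0. By day 8 the difference passed for 5 of 7 genes, each higher in the 1343KO line, against 28.3% of all genes and 15.6% higher: Fgf5 (2.89 ± 0.31), Zic5 (2.82 ± 0.21), Zic2 (2.74 ± 0.22), Otx2 (2.16 ± 0.33) and Pou3f1 (1.88 ± 0.23). Sox3 at 0.85 ± 0.33 did not pass (adjusted p = 0.0904), nor did Lef1 at 0.15 ± 0.62 (adjusted p = 0.891). By day 16 it passed for 6, Sox3 (1.73 ± 0.33, adjusted p = 0.00286) among them, against 40.0% of all genes and 21.7% higher. These contrasts share the day 0 libraries with those above, so they are not separate support.

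In the order of group means the 1343KO line at day 16 was highest for all 7 genes, and at day 8 second highest. The lowest group was WT at day 8 for Zic2 and Zic5, WT at day 16 for Pou3f1 and Sox3, and WT at day 0 for Fgf5, Otx2 and Lef1. Neighbouring groups whose libraries overlapped included WT at days 8 and 16 for Pou3f1, the lines at day 0 for Zic5 and Sox3, and all 4 lowest groups of Fgf5 in sequence. For Lef1 every neighbouring pair above WT at day 0 overlapped.

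Close relatives of these genes were measured beside them. Over all genes tested, 42.8% passed between the lines at day 8, 23.3% as higher and 19.6% as lower. At day 16 the share was 52.6%, with 28.5% as higher and 24.1% as lower. The counts of this list and of the lists below stand beside these shares. Among the other FGF ligands, 10 of 14 genes were tested, and 3 were higher, 2 lower and 5 not passing at day 8, and 5 higher, 3 lower and 2 not passing at day 16. Fgf4, the ERK-activating ligand of naive ES cells, was 45.6 and 49.1 FPKM in the 1343KO line at day 8 against 2.47 and 3.15 in WT (3.67 ± 0.19, adjusted p = 1.08e-06). At day 16 Fgf8 (2.09 ± 0.33) and Fgf15 (1.83 ± 0.18) were higher too, and Fgf15 had already passed as higher at day 8. The lower ligands were Fgf10 and Fgf3 at day 8, and Fgf9, Fgf1 and Fgf18 at day 16. Of 15 FGF receptor and ERK feedback genes 4 were higher and 6 lower at day 8, and 6 higher and 6 lower at day 16. Fgfr3 (-2.71 ± 0.27) and Fgfr1 (-0.86 ± 0.08), receptors for these ligands, were lower in the 1343KO line at day 8, and Fgfr3 also at day 16. The feedback inhibitor Spry2 was higher at day 8 and at day 16 (1.68 ± 0.11 at day 16).

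Relatives of the DNA-binding members were measured too, where 42.8% of all genes passed at day 8 and 52.6% at day 16. Of 3 tested OTX relatives, 1 was higher and 2 lower at both days. Among 9 tested SOX genes 2 were higher and 4 lower at day 8, and 3 higher and 3 lower at day 16. Among 6 tested POU genes 2 were higher and 0 lower at day 8, and 3 higher and 1 lower at day 16. Zic1 (-1.34 ± 0.24, adjusted p = 0.00113) and Zic4 (-1.13 ± 0.21, adjusted p = 0.00154) were lower in the 1343KO line at day 16. Pou3f2, Pou3f3 and Pou3f4, of the class of Pou3f1, stayed under 1 FPKM in all 12 libraries. Otx1 did not exceed 1.26 FPKM in any library. Sox2 was at 188 and 187 FPKM in the 1343KO line at day 0 and at 188 and 188 at day 8, where WT was at 18.5 and 19.5, and Sox21 was higher in the 1343KO line at days 8 (1.34 ± 0.22) and 16 (0.97 ± 0.22).

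**Figure D3:**
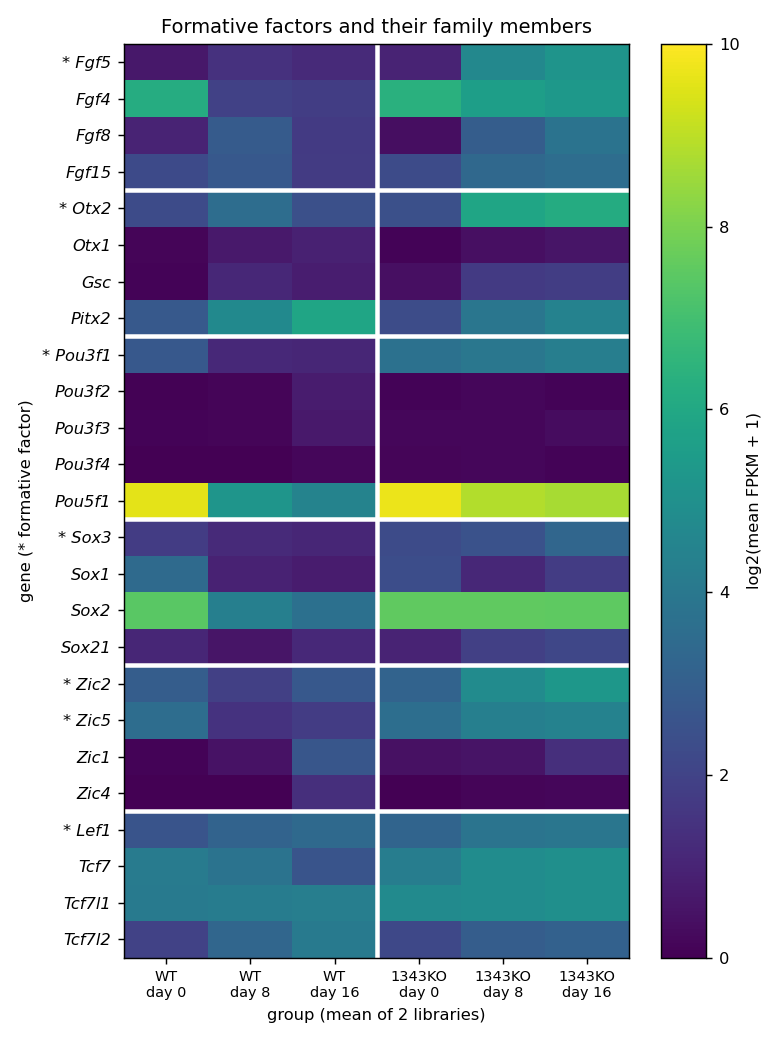
Log2(mean FPKM + 1) by group (columns, 2 libraries each) for the 7 genes, marked with an asterisk, and relatives from the FGF, OTX and GSC, POU, SOX, ZIC and LEF and TCF families (rows). Colour runs from 0 (dark purple) to 10 (yellow); Pou3f2, Pou3f3 and Pou3f4 are dark in all columns, and Sox2 stays bright in the 1343KO columns and darkens in WT at days 8 and 16.

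For Lef1 the lists held its partners and its WNT targets. Of 13 TCF, beta-catenin and cofactor genes, 3 were higher, 1 lower and 9 did not pass at day 8, and 4 were higher, 3 lower and 6 did not pass at day 16 (median -0.16, all genes 0.07). Tcf7l1, the TCF that represses WNT targets in ES cells, was higher in the 1343KO line at day 8 (0.65 ± 0.09, adjusted p = 0.000495) and day 16 (0.73 ± 0.09), and Tcf7, an activating TCF, was higher at day 8 (1.06 ± 0.11) and day 16 (2.38 ± 0.11). Tcf7l1 was also the 1 gene of the 13 that passed at day 0, as higher. The lower genes of this list were Bcl9l at day 8, and Pygo1, Tcf7l2 and Bcl9l at day 16. Of 14 tested WNT targets, 2 were higher, 4 lower and 8 did not pass at day 8, and 4 were higher and 6 lower at day 16. Among the lower targets at day 16, Nkd1, Apcdd1 and Rnf43 had the smallest p. Over all genes, 42.8% passed at day 8 and 52.6% at day 16 in either direction. Axin2, a feedback target, was at 5.33 and 6.08 FPKM in the 1343KO line at day 16 against 10.9 and 9.46 in WT (-0.74 ± 0.26, adjusted p = 0.0396), a call that ended without any 1 of the 4 day 16 libraries (adjusted p = 0.0824 to 0.168), without either 1343KO library of day 8 (0.053 and 0.0529) or without a filter (0.08). Notum, another target, was higher at day 8 (2.51 ± 0.24) and day 16 (1.2 ± 0.24).

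Other genes of the formative and primed epiblast were also mostly higher in the 1343KO embryoid bodies. Of 24 tested, 15 were higher, 3 lower and 6 did not pass at day 8 (median 1.60, all genes 0.06), and 20 were higher, 2 lower and 2 did not pass at day 16 (median 1.89, all genes 0.07). At day 0 the counts were 3 higher (Pim2, Dnmt3b and Etv5), 3 lower (Tcf15, Dnmt3a and Car4) and 18 not passing. Over all genes, 3.71% passed at day 0 in either direction. Dnmt3b, a DNA methyltransferase of the epiblast, was at 88.8 and 87.3 FPKM against 19.6 and 19.4 at day 8 (2.12 ± 0.07, adjusted p = 1.08e-07) and at 124 and 134 against 7.57 and 8.08 at day 16 (3.88 ± 0.07, adjusted p = 3.43e-09). Tdgf1, a Nodal co-receptor (3.68 ± 0.06), and Pim2, a kinase (2.81 ± 0.12), were higher at day 8, and Car4, a carbonic anhydrase, was lower (-2.23 ± 0.13). The list also holds Pou5f1 and Sox2, which ES cells share with the epiblast. Within the 1343KO line from day 0 to day 8, 8 of the 24 rose, 9 fell and 7 did not pass (median -0.06, all genes 0.07). In WT over those days 7 rose, 16 fell and 1 did not pass (median -1.79, all genes 0.0). Over all genes, 15.0% rose and 8.51% fell in the 1343KO line, against 26.8% and 24.5% in WT.

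Most naive genes were higher in the 1343KO embryoid bodies as well. Of 18 naive genes, 17 were higher and 1 lower at day 8 (median 3.16, all genes 0.06), and 15 were higher and 3 did not pass at day 16 (median 2.92, all genes 0.07). At day 0, 2 were higher (Nanog and Dppa3), 1 was lower (Klf5) and 15 did not pass. Over all genes 3.71% passed at that day. Nanog, a core factor of naive cells, was at 176 and 185 FPKM in the 1343KO line at day 8 against 12.9 and 12.3 in WT (3.74 ± 0.08, adjusted p = 1.99e-08), and the difference was 4.20 ± 0.08 at day 16. Klf4, another, was at 18.4 and 20.3 FPKM against 6.45 and 4.81 at day 8 (1.63 ± 0.15, adjusted p = 2.62e-05), and at 12.3 and 11.9 against 13.1 and 10 at day 16, where it did not pass (0.08 ± 0.15, adjusted p = 0.696). Within the 1343KO line from day 0 to day 8, 10 of the 18 fell, 3 rose and 5 did not pass (median -0.58, all genes 0.07). Over all genes 8.51% fell and 15.0% rose in that comparison.

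Markers of cell types that reuse these factors were set beside them. The 22 neural genes in the table summed to 39.5 and 39.8 FPKM in the 1343KO line at day 8 and 14.6 and 14.6 in WT, and to 56.7 and 60 against 32.4 and 34.1 at day 16, below the 119 to 139 of the 4 day 0 libraries. Stmn2, a neuronal tubulin regulator, made up 81.6 to 99.7 FPKM of the sums at day 0. Of 16 tested neural genes 8 were higher and 8 did not pass at day 8, and 6 were higher, 3 lower and 7 did not pass at day 16. Over all genes, 42.8% passed at day 8 (23.3% as higher) and 52.6% at day 16 (28.5% as higher). Sox1, which defines the neural plate, was at 1.36 and 0.995 FPKM in the 1343KO line at day 8 against 1.07 and 0.831 (adjusted p = 0.546) and at 2.65 and 2.3 against 0.868 and 0.482 at day 16 (1.06 ± 0.19, adjusted p = 0.00118). Pax6, of eye and brain, was at 3.11 and 2.67 FPKM against 1.02 and 1 at day 8 (0.95 ± 0.23, adjusted p = 0.0096, and 0.0541 without 1343KO replicate 1). At day 0 Sox1 passed as lower in the 1343KO line, at 4.27 and 3.94 FPKM against 10.3 and 9.68 in WT. Pax6 was then at 6.12 and 6.62 FPKM in the 1343KO line and at 2.36 and 4.37 in WT. In the embryoid bodies of each line both genes were thus below their own day 0 levels. The list's genes at 0 in both libraries of a group were, at day 8, Neurog1 in WT and Neurog2 in the 1343KO line. At day 16 they were Rax in WT and Neurog1 in the 1343KO line. At day 0 there was 1 such gene in WT and 3 in the 1343KO line. The part of neural cells in the levels of Otx2, Sox3, Zic2, Zic5 and Pou3f1 was not tested.

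Visceral endoderm, a source of Otx2, went the other way. Its 14 markers were already lower in part at day 0, where they summed to 127 and 115 FPKM in the 1343KO line against 183 and 180 in WT. At that day 6 of 14 were lower and 8 did not pass, where 2.12% of all genes passed as lower. The sums were 299 and 264 FPKM in the 1343KO line at day 8 against 1629 and 1656 in WT, and 236 and 240 against 10560 and 10621 at day 16. At day 8, 10 of 14 were lower, 1 was higher and 3 did not pass; at day 16, 11 were lower, 1 higher and 2 did not pass. Ttr, a carrier protein of that tissue, was at 15.5 and 13.6 FPKM against 220 and 228 at day 8 (-3.86 ± 0.13), and Afp at 43.1 and 29.5 against 8246 and 8139 at day 16 (-7.81 ± 0.21). The 1 higher gene was Cer1, a secreted Nodal and BMP antagonist of the anterior endoderm (2.11 ± 0.21 at day 8, 3.38 ± 0.21 at day 16). Primitive streak genes summed to 25 and 23.5 FPKM in the 1343KO line at day 8 and 17.4 and 22 in WT, and to 39 and 41.3 against 7.73 and 7.89 at day 16. Of 7 tested, 3 were higher and 2 lower at day 8, and 5 were higher at day 16; Msgn1 was at 0 in both libraries of every group. T, the streak factor brachyury, was at 4.67 and 5.94 FPKM against 1 and 1.35 at day 8 (1.53 ± 0.20), and the difference was 2.83 ± 0.20 at day 16.

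The 11 fibroblast genes, a source of Lef1, summed to 47 and 47.5 FPKM in the 1343KO line at day 8 against 259 and 284 in WT, and to 66.8 and 64.9 against 3872 and 3987 at day 16. Germ cell genes, which follow the formative state in the embryo, summed to 251 and 226 FPKM in the 1343KO line at day 8 against 17.9 and 12.6, with 6 of 7 higher and 1 not passing at days 8 and 16. Tfap2c, a factor of germ cells and trophoblast, was among them (3.09 ± 0.15 at day 8). The germ cell list is not separate from the others, as it shares Dppa3 with the naive list. It also shares Tfap2c with the neural crest and surface ectoderm list, where Tfap2c was the 1 higher gene at days 8 and 16. Of 10 tested neural crest and surface ectoderm genes, 1 was higher and 4 lower at day 8, and 1 higher and 8 lower at day 16. Of 12 blood and endothelial genes 10 were lower and 1 higher at day 8, and 7 were lower at day 16. Of 12 cell division genes 4 were higher and 3 lower at day 8, and 12 were higher at day 16. Over all genes, 42.8% passed in either direction at day 8 and 52.6% at day 16. The part of these cell types, and of cell division, in the levels of the 7 genes was not tested.

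**Figure D4:**
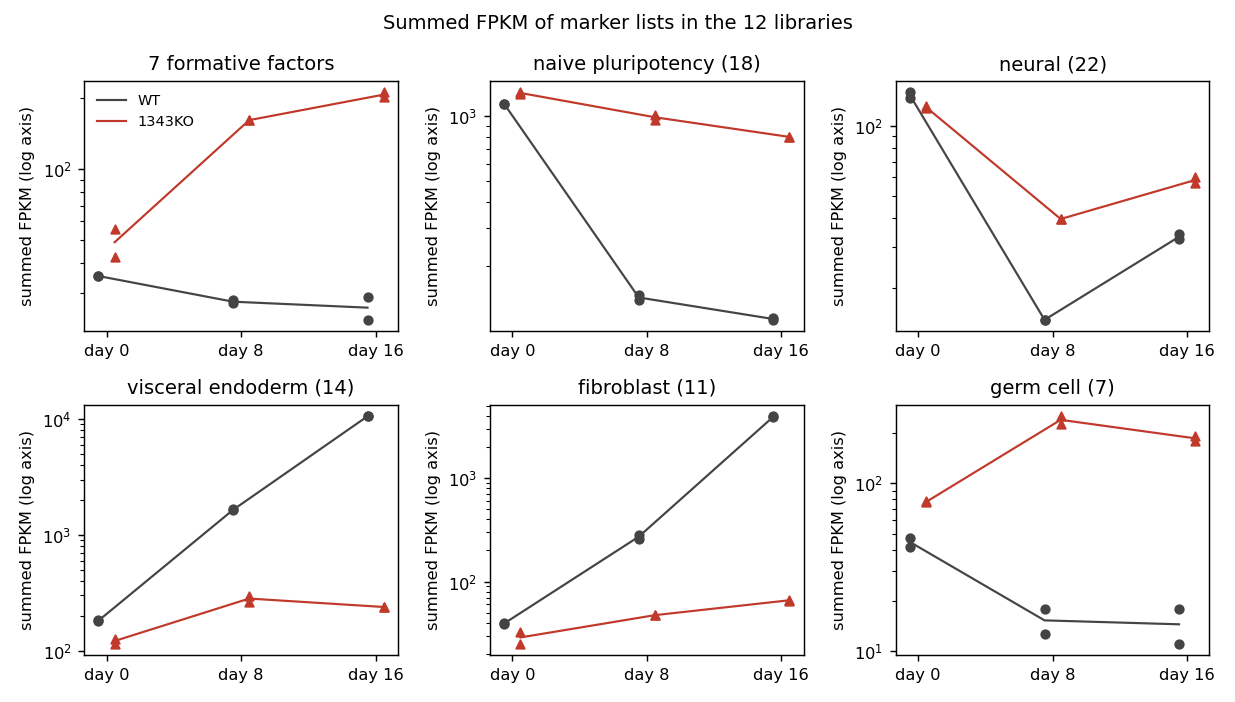
Summed FPKM (log axes) of the 7 formative factors and of 5 marker lists, with the number of genes in brackets, by day, 1 symbol per library and lines through the means (WT circles, 1343KO line triangles). The formative sum is at 161 and 161 in the 1343KO libraries of day 8 against 27.8 and 27.1 in WT, and the endoderm and fibroblast sums are lower in the 1343KO line at days 8 and 16.

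The genes whose levels ran most like each member were found by the Pearson correlation of log2(FPKM + 1) over the 12 libraries among 10472 named genes with a group mean of at least 5 FPKM; the libraries fall into 6 groups, so these are descriptions of a course. Otx2 ran most like T (0.985), Fgf5 (0.981) and D2hgdh (0.980), and Fgf5 like Otx2, T (0.970) and Lima1 (0.968). Zic5 was closest to the naive factor Klf2 (0.989), then Mup6 (0.985) and Klhl8 (0.985), and Pou3f1 to Plekhf2 (0.989), Nexmif (0.983) and Sox15 (0.980). Zic2 was closest to Abcg1 (0.986), Irf1 (0.978) and Plcd1 (0.975), and Sox3 to Pim2 (0.960), Tmem40 (0.949) and Suds3 (0.946). The closest to Lef1 were Tpbg (0.853), Mtmr4 (0.851) and Shb (0.847). Among the 7 themselves the coefficient was 0.98 for Fgf5 and Otx2, 0.97 for Pou3f1 and Zic5, 0.86 for the neighbours Zic2 and Zic5 and 0.35 for Zic5 and Lef1.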

How the data were processed

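The authors deposited 1 table of FPKM per gene (12 libraries of poly(A) RNA, NEBNext Ultra II kit, per the labels). Cufflinks 2.1.1 and GRCm38 (mm10) are named in the submitters' processing notes; no aligner, annotation or filter is given there. Cufflinks splits reads among overlapping transcripts, which matters most for genes with many isoforms. Table coordinates, with the start counted from 1, equalled GENCODE M21 for 98.7% of matched genes.

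Using limma 3.58.1 in R 4.3.3, log2(FPKM + 1) of 16289 genes was modelled by group over the 12 libraries (empirical Bayes with trend, 6 residual degrees of freedom). The 12 contrasts compared lines at each day, days within each line and how far those changes differed. Tests were two-sided, with p-values adjusted by Benjamini-Hochberg over all genes of a contrast, with a threshold of 0.05. Exact permutation of 2 against 2 libraries cannot go below p = 0.333. The labels do not call the replicates separate cultures; the p-values then reflect spread among libraries alone, possibly technical. A fold is a ratio of mean FPKM; a log2 difference is on the log2(FPKM + 1) scale and understates low genes. Depth was estimated from low values of single-transcript genes of at least 1500 nt, assuming fragments of 200 nt, as multiples of 1 fragment (per library, 86.1% to 88.9% of these lay no more than 5% off a whole number); no count test was run on it.

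The genes, and the 18 other lists of 239 entries, were chosen with earlier results of these data known. Named genes are the 7, fixed markers, called list members with the smallest p (at most 3 a direction), the 3 genes most like each member, and neighbours; Pim2 at day 8, Snhg3, Eif2s3y, Otx1, Pou3f2, Pou3f3, Pou3f4, Neurog1, Neurog2, Rax and Msgn1 were chosen after their values were seen. Alternatives were other pseudocounts, filters, scalings, a replicate block, robust empirical Bayes, the compared groups alone and each library left out. The fit was tested on simulated data for the day 0 comparison, with 200 changed genes. It recovered 60% of the 2-fold and 91% of the 4-fold changes of FPKM + 1, and 7.93% of its calls were false. A gene that did not pass at day 0 can thus still differ between the lines. Tables and figures used matplotlib 3.10.9, numpy 2.4.6 and pandas 2.3.3 under Python 3.11.15. Only the 12 libraries of this table were analysed here, and 1 gene of the lists is not reported here.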

Additional observations from a re-analysis of the deposited data

Results flagged for a closer look

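The change from day 0 differed between the lines for several of the genes by limma's test of the difference itself. From day 0 to day 8 the 1343KO line exceeded WT, on the log2(FPKM + 1) scale, by 2.89 for Fgf5, 2.82 for Zic5, 2.74 for Zic2, 2.16 for Otx2 and 1.88 for Pou3f1. From day 0 to day 16 the excess was 3.65 for Fgf5, 3.57 for Otx2, 2.65 for Zic5, 2.33 for Zic2, 2.26 for Pou3f1 and 1.73 for Sox3. From day 8 to day 16 it was 1.41 for Otx2. With 2 libraries a group, no library could be tested as standing apart from its group.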

How the results depend on the processing

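Of 1668 recomputed values of single members, 1601 kept their direction and their side of the threshold, 33 lost the call, 13 gained one and 21 changed sign. The 6 members higher at day 8 and at day 16 were 5 to 7 under the alternatives run. The count of 5 came with a filter on a mean of at least 5 FPKM, which left Sox3 untested. Counts of members passing moved by over 1.5 times in 3 comparisons. The 1 call at day 0 was 0 on the day 0 libraries alone and 0 to 1 when a library was left out. The 2 WT calls from day 8 to day 16 were 0 on those WT libraries alone. The 1 call for the difference of changes from day 8 to day 16 was 0 to 1 when a library was left out. The cause was not tested, beyond there being fewer libraries.

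No value that changed sign had passed. When 1 library was left out, differences between the lines at day 0 ran from -0.04 to 0.12 for Zic5, -0.02 to 1.06 for Lef1 and -0.18 to 0.48 for Otx2, and at day 16 from -0.03 to 1.33 for Lef1 and -0.10 to 0.25 for Klf4. The change of Lef1 from day 8 to day 16 ran from -0.20 to 0.35 in the 1343KO line and -0.59 to 0.77 in WT, and from day 0 to day 16 in WT from 0.00 to 1.35. In WT, Pou3f1 ran from -0.28 to 0.15 (day 8 to 16) and Otx2 from -0.16 to 0.45 (day 0 to 16). The difference of changes of Lef1 ran from -0.40 to 0.69 (day 0 to 8), -0.69 to 0.66 (day 8 to 16) and -0.55 to 0.81 (day 0 to 16). With TPM scaling it was -0.04 (day 0 to 8) and 0.05 (day 8 to 16), and Klf4 at day 16 was -0.05, or -0.04 with median-of-ratios scaling.

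Deviations of same-numbered libraries correlated at -0.04 to 0.04 over 15 pairs of groups, so no shift shared by same-numbered libraries was seen. Whether such libraries were grown or prepared together cannot be told from these values. With a replicate block 6 members passed at days 8 and 16. From day 0 to day 16 in WT 4 passed with the block, where 3 passed without it (Fgf5, adjusted p = 0.0373 by limma, was added). Other scalings moved the split of all calls: at day 8, 3788 higher and 3185 lower became 3424 and 3505 with median-of-ratios and 2822 and 4131 with TPM scaling, while 6 members stayed higher under both. About 10 fragments stand behind 1 FPKM of a transcript of 2000 nt in the shallowest library, which limits Fgf5 and Sox3 in WT.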

Other observations

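Relatives of Zic2 and Zic5 also changed in WT. From day 8 to day 16 Zic1, a cerebellar and somite factor, went from 0.349 and 0.421 FPKM to 6.16 and 4.78 (log2 change 2.22 ± 0.24 (SE), adjusted p = 0.000172 by limma). Zic4, the neighbour of Zic1, was listed at 0 in both WT libraries of day 8 and at 1.13 and 1.92 at day 16 (1.32 ± 0.21, adjusted p = 0.00164). Zic2 rose over these days while Zic5, from the same locus as Zic2, did not pass (0.31 ± 0.15, adjusted p = 0.166).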
